A study of Mus musculus with 4 samples.

Results

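Expression of 10 genes of the synaptonemal complex and of the chromosome axis that it is built on was followed in germ cells of the young mouse testis, in organ culture and in the animal. The genes were Sycp1, Sycp2, Sycp3, Syce1, Syce2, Syce3, Tex12, Hormad1, Hormad2 and Trip13. They were taken by symbol, 10 of 31017 symbols in the deposited matrices, and germ cells were the cells with at least 2 unique molecular identifiers (UMIs, each counting 1 captured RNA molecule) of Ddx4 and Dazl together. Ddx4 encodes an RNA helicase and Dazl an RNA-binding protein of germ cells. At 9 days postpartum (dpp) the gate kept 2737 of 5146 cells, and at 14 dpp 4240 of 6219. The 2-day culture had 2825 of 6879 cells in the gate and the 7-day culture 2576 of 4817.

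The study compared the transcriptomes of single cells from cultured testes and from testes in vivo. All mice were C57BL/6 and carried the Acr-Gfp transgene, in which the promoter of the acrosomal protease gene Acr drives green fluorescent protein. For the 2 cultures, testes taken at 7 dpp were cut into fragments and kept for 2 or 7 days at the surface of agarose in α-MEM with AlbuMAX, a lipid-rich serum albumin, under a ceiling chip of the silicone PDMS. The 9 dpp and 14 dpp testes were not cultured, and in each pair the days of culture add up to the in vivo age. The labels name no number of animals per library, and their account of the library kit mentions female gonads although they give the tissue as testis.

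In the first meiotic prophase each chromosome folds into loops along a protein axis, and homologous chromosomes are then zipped together by the synaptonemal complex. SYCP2 and SYCP3 form the axes that become its lateral elements, SYCP1 spans the gap between them as the transverse filament, and SYCE1, SYCE2, SYCE3 and TEX12 build the central element in the middle. HORMAD1 and HORMAD2 bind axes that are not yet synapsed, and the ATPase TRIP13 removes them as synapsis proceeds. Loss of most of these proteins arrests spermatocytes and leaves male mice infertile.

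Promoter sequence is shown first, because some of these genes carry motifs of factors known to act at meiotic promoters. A link between the motifs and the levels below was not tested. RefSeq windows on GRCm38.p6 from 250 bases before to 50 bases after each start site were found for all 10 genes and searched on both strands for CACGTG (an E-box), TTCCCGC (an E2F site) and CCTCAG (the core of a motif at promoters bound by STRA8). The stretches below end at the base before the start site, run 5′ to 3′ along the gene's strand, and have each match to any of the 3 motifs, on either strand, in capitals. Sycp1 is at chr3:102936101-102936220 on the minus strand, Sycp3 at chr10:88459337-88459586 on the plus strand, Hormad1 at chr3:95559557-95559676 on the plus strand and Trip13 at chr13:73937768-73937887 on the minus strand. Sycp3 and Hormad1 are shown for their paired E-boxes, Sycp1 for its single E-box and Trip13 as a gene with no match.
Sycp1: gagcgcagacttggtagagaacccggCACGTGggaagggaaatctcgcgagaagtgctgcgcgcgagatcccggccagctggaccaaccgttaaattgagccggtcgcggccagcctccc
Sycp3: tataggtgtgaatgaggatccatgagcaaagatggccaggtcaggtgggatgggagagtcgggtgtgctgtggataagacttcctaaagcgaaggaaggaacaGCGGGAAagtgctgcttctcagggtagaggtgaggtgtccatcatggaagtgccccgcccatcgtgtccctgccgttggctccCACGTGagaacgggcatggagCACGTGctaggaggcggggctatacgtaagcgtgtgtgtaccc
Hormad1: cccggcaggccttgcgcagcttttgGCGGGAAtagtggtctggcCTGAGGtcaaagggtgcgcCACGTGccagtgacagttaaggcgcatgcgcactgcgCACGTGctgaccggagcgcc
Trip13: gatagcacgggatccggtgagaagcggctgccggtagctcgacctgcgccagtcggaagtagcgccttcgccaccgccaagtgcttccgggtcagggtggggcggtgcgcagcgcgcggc

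The E-box was found for 5 of the 10 genes, namely Sycp1, Sycp3, Syce2, Tex12 and Hormad1, against 8.09% of 27025 genes with a window. Its first base lies at -94 in Sycp1, at -64 and -43 in Sycp3, at -88 in Syce2, at -93 in Tex12, and at -57 and -20 in Hormad1, counted back from the start site. The E2F motif was found in 4 of the 10 (Sycp3, Syce2, Tex12 and Hormad1), against 5.29% of genes, so that both motifs were present in 4 of 10 genes, against 0.514% of all genes. CCTCAG was found in 6 of 10, against 29.4% of genes. In Syce2 the CCTCAG and E2F matches share bases. Sycp2, Syce3 and Trip13 held none of the 3 motifs in these windows. A match describes letters and does not show that a factor binds there.

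The 4 libraries held 5149 to 7710 barcodes and 34491701 to 60829941 UMIs, with a median per gated germ cell of 11383 UMIs at 9 dpp, 3735 in the 2-day culture, 7801.5 at 14 dpp and 6840 in the 7-day culture. Between 35 and 86 barcodes were shared by any 2 libraries. Each group had 1 library, so no difference below has a replicate check and none was tested. The intervals are 95% intervals that cover counting error only, and culture and library cannot be told apart. Levels are CPM, the UMIs of a gene summed over the cells named and scaled to a common total. Because the kit tags the 3′ end of each RNA, a CPM is not divided by transcript length.

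The 2-day culture stood apart. Cluster 1 held 33.2% of its gated cells, against 2.52% at 9 dpp, 0.542% at 14 dpp and 5.28% in the 7-day culture. It was left unnamed because Ccna1, a pachytene marker, was among its leading genes while markers of differentiating spermatogonia fitted it best. Cluster 8, an early meiotic cluster, held 615 of its cells, against 16 at 9 dpp, 3 at 14 dpp and 36 in the 7-day culture. The gate also let in cells with somatic markers: those with at least 5 UMIs of the Sertoli or stromal lists numbered 412 at 9 dpp, 145 in the 2-day culture, 830 at 14 dpp and 126 in the 7-day culture. Gated clusters that Sertoli markers fitted best held 185, 64, 509 and 91 cells in that order. Of the 185 at 9 dpp, 184 were in cluster 15, which is given no cell type name here because macrophage genes such as Lyz2 and Marco were among its leading genes beside the Sertoli gene Amh. The Sertoli-like cells at 14 dpp had 1043 CPM of Sycp3 and 732 CPM of Sycp1 but 18.3 CPM of Trip13.

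Sycp1, the transverse filament gene, stood at 362 CPM at 9 dpp, 615 in the 2-day culture, 985 at 14 dpp and 1471 in the 7-day culture. Their intervals did not overlap. Sycp3 ran from 498 CPM at 9 dpp to 1233 at 14 dpp, 1316 in the 2-day culture and 2180 in the 7-day culture. It was the highest of the 10 genes in both cultures and at 14 dpp, and at 9 dpp its interval of 490 to 505 CPM overlapped that of Syce2, 491 to 506. Sycp2, the partner of Sycp3 on the axis, was lower throughout: 59.5 CPM at 9 dpp, 118 in the 2-day culture, 258 at 14 dpp and 359 in the 7-day culture.

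The central element genes differed less between libraries. Syce1 lay between 158 CPM at 9 dpp and 223 in the 7-day culture, and Tex12 between 238 at 9 dpp and 352 in the 2-day culture. Syce3 had the same order of libraries as Sycp1: 113 CPM at 9 dpp, 198 in the 2-day culture, 289 at 14 dpp and 336 in the 7-day culture. Syce2 was highest in the 2-day culture, at 872 CPM, and measured 499 at 9 dpp, 558 at 14 dpp and 608 in the 7-day culture.

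Hormad1 was at 109 CPM at 9 dpp, 208 in the 2-day culture, 268 at 14 dpp and 471 in the 7-day culture. Hormad2 was the lowest of the 10 in all 4 libraries, at 22.1 CPM at 9 dpp, 35.8 in the 2-day culture, 36.1 at 14 dpp and 58.9 in the 7-day culture. The middle pair of these Hormad2 values did not differ beyond counting error. Trip13 ran the other way, from 80.5 CPM at 14 dpp and 83.2 in the 7-day culture, whose intervals overlapped, to 98.9 at 9 dpp and 114 in the 2-day culture.

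**Figure D1:**
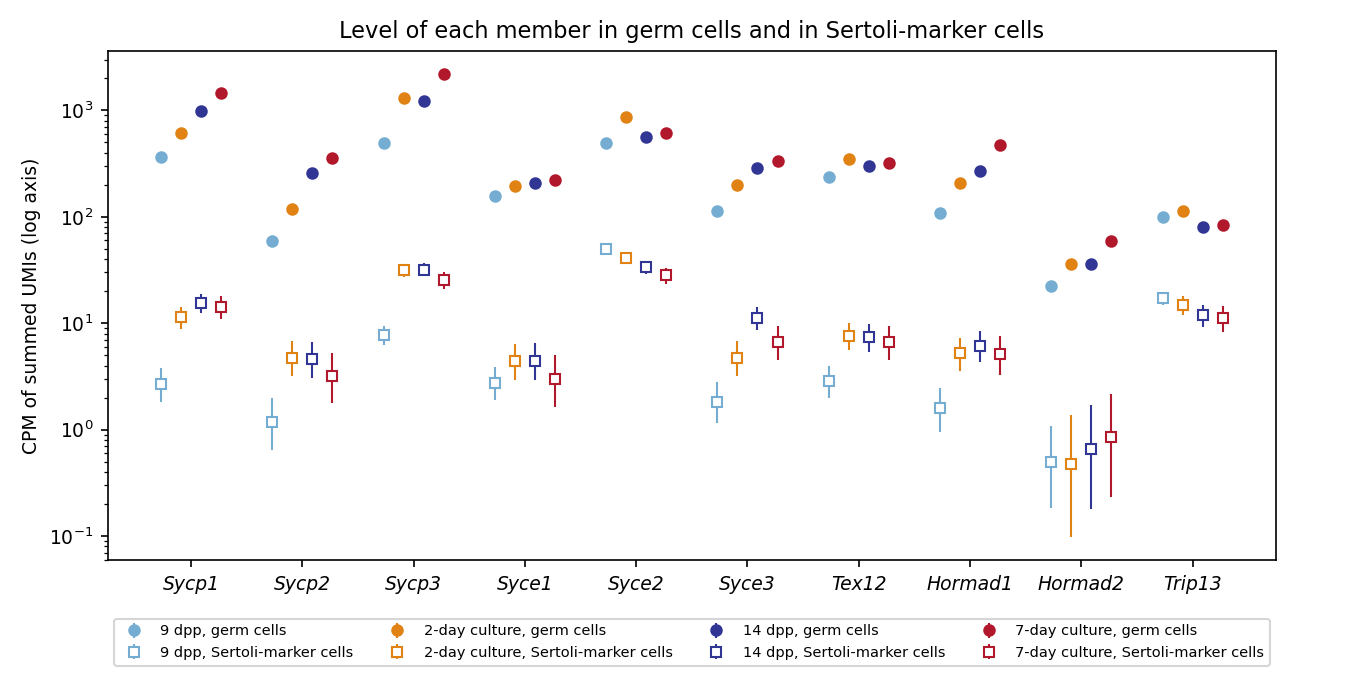
Level of each gene in CPM (log axis) in gated germ cells (filled circles) and in cells with Sertoli markers and no Ddx4 or Dazl (open squares), by library; vertical lines are 95% Poisson intervals. Sycp3 reaches 2180 CPM in the 7-day culture, all 10 genes are lower in the Sertoli-marker cells of the same library, and Syce2 and Trip13 have the smallest gap at 9 dpp.

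Cells outside the germ cell gate also held a few of these UMIs. In cells with at least 3 Sertoli marker UMIs and none of Ddx4 or Dazl, Sycp3 measured 7.69 CPM at 9 dpp, 31.6 in the 2-day culture, 31.8 at 14 dpp and 25.4 in the 7-day culture. Hormad2 was under 1 CPM in each. Syce2 and Trip13 did not keep the proportion to Sycp3 that they had in germ cells. At 9 dpp Syce2 and Sycp3 stood at 499 and 498 CPM in gated germ cells, while the ratio of Syce2 to Sycp3 was 6.45 in the Sertoli-marker cells and 5.89 in cells with stromal markers. The ratio of Trip13 to Sycp3 at 9 dpp was 0.199, 2.24 and 2.04 in the same 3 sets. That of Sycp1 to Sycp3 went the other way there, with 0.728, 0.348 and 0.329. The gap was largest at 9 dpp: in Sertoli-marker cells Syce2 to Sycp3 was 1.30 in the 2-day culture, 1.06 at 14 dpp and 1.11 in the 7-day culture. In gated germ cells of these libraries it was 0.663, 0.453 and 0.279. Trip13 also serves the mitotic spindle checkpoint and is not restricted to meiosis.

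The annotation of GENCODE M21 on GRCm38 places the genes on 9 chromosomes. Sycp3 (ENSMUSG00000020059) lies at chr10:88459569-88473236 and its exons overlap those of Chpt1, a gene of phospholipid synthesis on the opposite strand. Chpt1 measured between 51.7 CPM in the 2-day culture and 61.4 CPM in the 7-day culture in gated cells. Sycp1 (ENSMUSG00000027855, chr3:102818499-102936100) shares 197 of 3599 words of 50 bases with other annotated genes, among them the pseudogene Sycp1-ps1. Hormad1 (ENSMUSG00000028109, chr3:95559677-95587671) shares 406 of 1773 with Gm15529 and Gm7167, so the counts of Sycp1 and Hormad1 are less certain. How the counting used strand or shared reads is not given in the sources used here.

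Stages were then set by clustering the gated cells without the 10 genes and without the other meiotic genes described below. Clusters were called spermatogonia-like, early prophase-like (preleptotene to zygotene markers) or pachytene-like from marker lists. Fine stage names were merged into these classes after the data were seen. Early prophase-like cells made up 14.0% of gated cells at 9 dpp (382 cells), 28.4% in the 2-day culture (802 cells), 31.9% at 14 dpp (1354 cells) and 41.4% in the 7-day culture (1066 cells). Pachytene-like cells were found in the 7-day culture (68 cells) and at 14 dpp (102 cells). None was found at 9 dpp or in the 2-day culture, where 0 of 2825 gated cells allows a share of up to 0.130%.

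Early prophase-like cells had more RNA than spermatogonia-like cells of the same library for 9 of the 10 genes in all 4 libraries, and less for Trip13. Sycp3 measured 363 CPM in spermatogonia-like and 2724 in early prophase-like cells at 9 dpp, 752 and 4662 in the 2-day culture, 363 and 3918 at 14 dpp, and 441 and 5219 in the 7-day culture. The log2 ratios were 2.91, 2.63, 3.43 and 3.56. For Sycp2 they were 3.28, 2.39, 3.96 and 3.23, and for Hormad1 3.42, 2.10, 3.44 and 3.50. For Sycp1 they were 2.26, 1.78, 2.95 and 2.84, all in the order 9 dpp, 2-day culture, 14 dpp, 7-day culture. The ratio was smallest in the 2-day culture for each of these 4 genes. Hormad2 had 2.96, 2.36, 2.88 and 2.70.

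Syce2 had the smallest of the positive ratios in 3 of the 4 libraries: 1.41, 1.57, 1.20 and 0.89 in the same order. In the 2-day culture Syce1 was lower, at 1.32. Trip13 had ratios of -0.57, -1.01, -0.95 and -1.12. At least 2-fold higher were 9 of the 10 genes at 9 dpp (13.9% of all genes tested), at 14 dpp (15.8%) and in the 2-day culture (10.2%), and 8 of the 10 in the 7-day culture (14.3%). Trip13 was at least 2-fold lower in both cultures, as were 17.9% of all genes tested in the 2-day and 26.4% in the 7-day culture. At 9 and 14 dpp 0 of the 10 were as much lower, against 29.2% and 29.5% of all genes.

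Between early prophase-like and pachytene-like cells, the 10 genes separated. Syce2 fell by 1.91 on the log2 scale in the 7-day culture and by 1.92 at 14 dpp, from 948 to 252 CPM and from 1161 to 307 CPM. Sycp3 had log2 ratios of -0.76 and -0.72, while Syce1 was higher in the pachytene-like cells by 0.35 and 0.52. Sycp2 and Syce3 had ratios between -0.19 and -0.11 in both libraries. Hormad1 was at 1072 and 988 CPM in the 7-day culture and at 817 and 844 CPM at 14 dpp, so the RNA of a protein that leaves synapsed axes was about as high in pachytene-like cells as in the earlier stage. At least 2-fold lower were 1 of 10 genes in the 7-day culture (27.4% of all genes tested) and 2 of 10 at 14 dpp (34.2%), and 0 of 10 were as much higher (12.3% and 18.2%).

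Finer steps could be read from clusters ordered by their stage markers. Clusters 3 and 9 fitted preleptotene markers best but got no fine stage name, because their leading genes held more leptotene and zygotene markers. On the leptotene and zygotene list the mean relative marker level was 0.787 in cluster 9, 0.577 in cluster 5 and 0.391 in cluster 13. The order of clusters 9, 5 and 13 is thus less certain. At 14 dpp, Sycp1 measured 1235 CPM in cluster 3 (preleptotene markers), 2706 in cluster 9 (preleptotene markers, with Fbxo47 and Inca1 leading), 4231 in cluster 5 and 3724 in cluster 13 (leptotene and zygotene markers), and 2498 in cluster 16 (pachytene markers). Sycp3 in the same order was at 1838, 4316, 4723, 6005 and 2384 CPM. Sycp1 was thus highest in cluster 5 and Sycp3 in cluster 13 at 14 dpp. Hormad1 was also highest in cluster 13, with 523, 760, 792, 1370 and 844 CPM.

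Of the central element genes, 3 were highest in a cluster earlier in this order. Syce2 at 14 dpp was at 1107, 2090, 1045, 452 and 307 CPM over clusters 3, 9, 5, 13 and 16. Tex12 was at 803, 1183, 727, 470 and 606 CPM over the same clusters. Syce1 was at 519, 679, 238, 234 and 614 CPM, with a dip in clusters 5 and 13 and a return in the pachytene-like cluster. Syce2, Tex12 and Syce1 were highest in cluster 9 among the early prophase-like clusters of that library, ahead of Sycp1, Sycp3 and Hormad1. Syce3, the fourth central element gene, was highest in cluster 5, with 340, 872, 971, 699 and 590 CPM.

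Over clusters 3, 9, 5, 13 and 16, the 7-day culture showed the same order of peaks for Syce2, Syce1, Sycp1 and Hormad1. Cluster 8, with 36 cells of this culture, is not listed. Syce2 was at 1251, 2469, 942, 408 and 252 CPM over clusters 3, 9, 5, 13 and 16, and Syce1 at 468, 679, 252, 300 and 450 CPM. Sycp1 was highest in cluster 5, at 4340 CPM, and Hormad1 in cluster 13, at 1439 CPM. The exception was Sycp3, which was highest in cluster 5 of the 7-day culture, at 6660 CPM, and lower in cluster 13, at 5718 CPM.

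**Figure D2:**
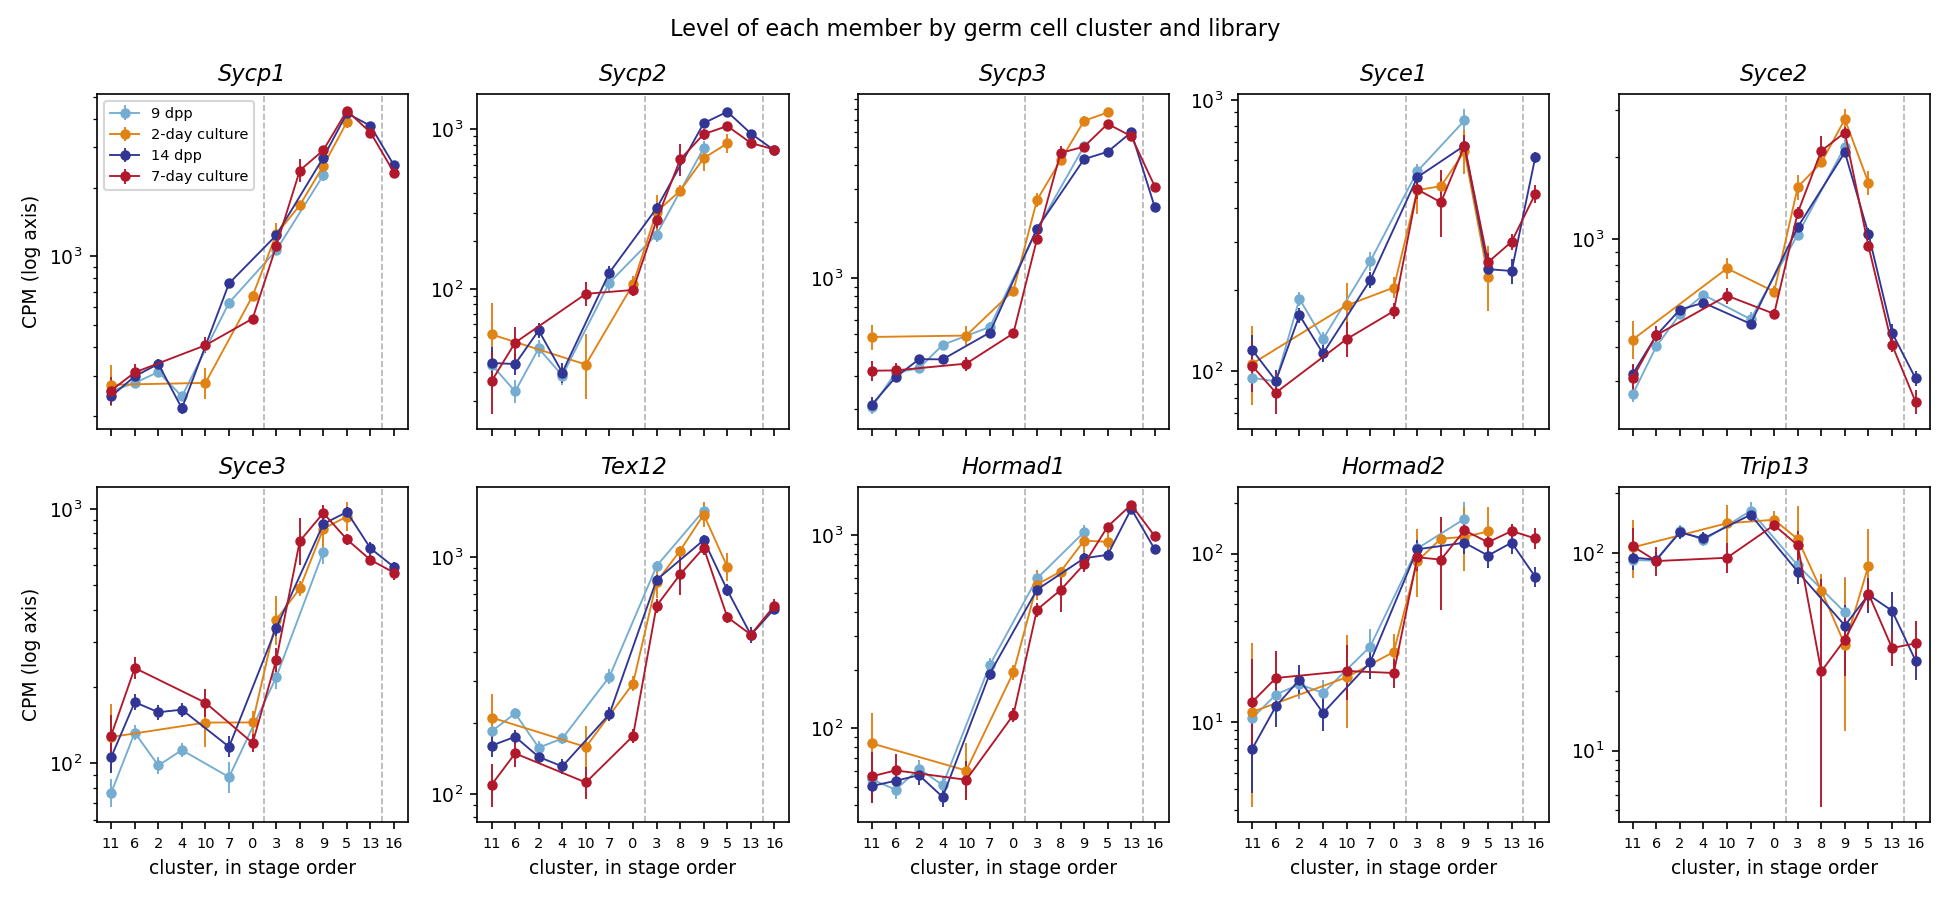
Level of each gene in CPM (log axis) in each germ cell cluster with at least 30 cells in a library, with clusters in stage order from undifferentiated spermatogonia markers (11) to pachytene markers (16); dashed lines separate spermatogonia-like, early prophase-like and pachytene-like clusters and vertical lines are 95% Poisson intervals. At 14 dpp Syce1, Syce2 and Tex12 peak in cluster 9, Sycp1 in cluster 5 and Hormad1 in cluster 13, and Trip13 is lower in the early prophase-like clusters than in the spermatogonia-like cluster 7.

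At the level of single cells, each cell was thinned to 2000 UMIs so that libraries of different depth could be set side by side. Shallower cells were left out: 25 at 9 dpp, 385 in the 2-day culture, 60 at 14 dpp and 82 in the 7-day culture. Among early prophase-like cells, 12 of 382, 200 of 802, 33 of 1354 and 42 of 1066 were left out in the same order. In early prophase-like cells, at least 5 of the 10 genes had a UMI in 86.8% of cells at 9 dpp, 89.9% in the 2-day culture, 93.9% at 14 dpp and 91.3% in the 7-day culture. In spermatogonia-like cells the share was 10.4% at 9 dpp and 30.6% in the 2-day culture, and 230 of 1916 cells at 14 dpp and 15.5% in the 7-day culture. In Sertoli-marker cells the count was 0 in 3 libraries and 1 of 711 cells at 14 dpp.

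Over all gated germ cells the share with at least 5 of the 10 genes was 21.5% at 9 dpp, 37.9% in the 2-day culture, 43.1% at 14 dpp and 47.8% in the 7-day culture. Without thinning these shares were 88.9%, 71.7%, 89.9% and 87.3%, with another order of the libraries. Sycp3 alone had a UMI in 96.2% of thinned early prophase-like cells at 9 dpp, 99.3% in the 2-day culture, 98.0% at 14 dpp and 98.6% in the 7-day culture. In the same order, Hormad2 had one in 20.3%, 19.6%, 19.8% and 19.8%, and Syce2 in 88.6%, 94.9%, 86.8% and 75.6%. Hormad2 was thus found in about the same share of these cells in each library, while Syce2 was lowest in the 7-day culture.

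**Figure D3:**
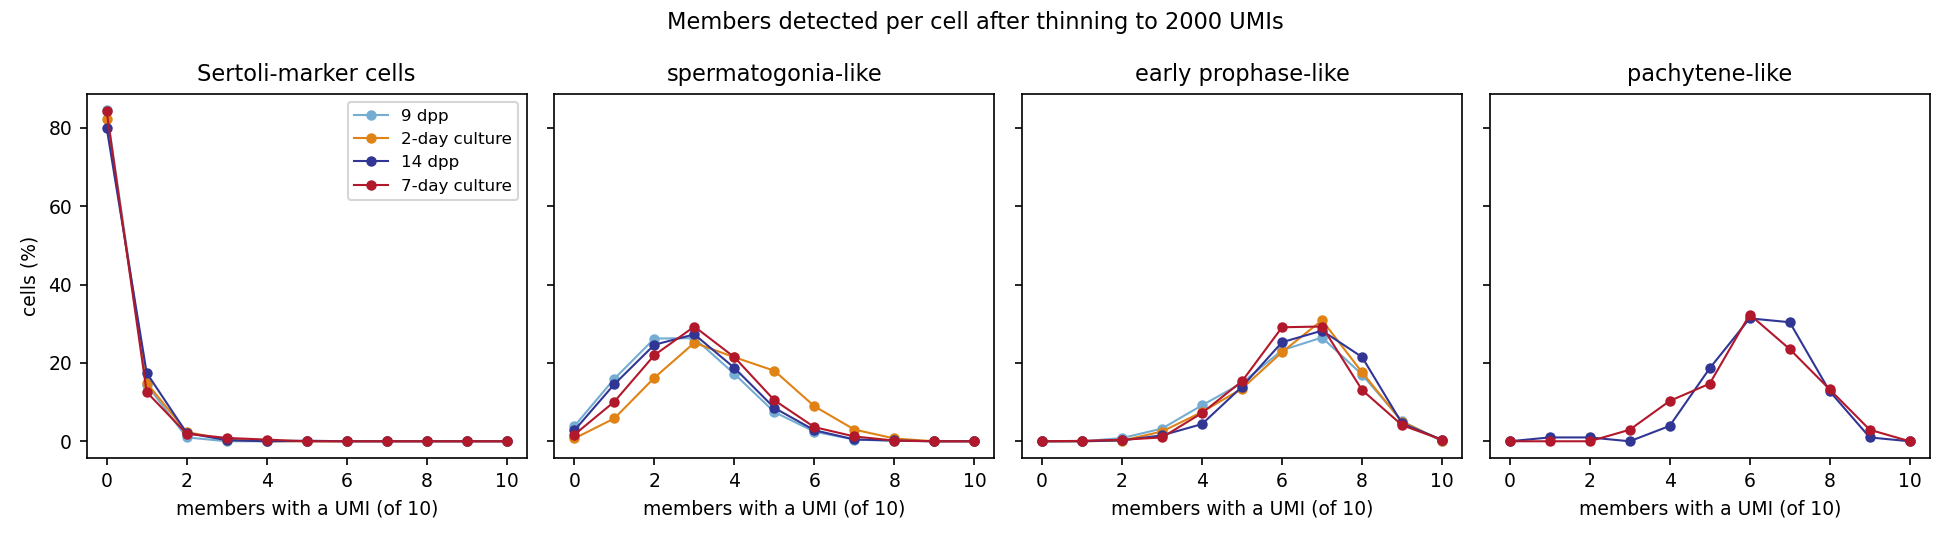
Share of cells (percent) by the number of the 10 genes with a UMI after thinning to 2000 UMIs, for Sertoli-marker cells, spermatogonia-like, early prophase-like and pachytene-like cells; lines are libraries. Sertoli-marker cells sit at 0 genes, spermatogonia-like cells around 3 and early prophase-like cells around 6 to 7, and the spermatogonia-like curve of the 2-day culture lies to the right of the other 3.

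The 2-day culture was set against 9 dpp to ask how germ cells of the same total age differ in culture and in the animal. Over all gated cells, all 10 genes were higher in the 2-day culture. Sycp3 had the largest log2 ratio, 1.40 with an interval of 1.37 to 1.43. Sycp2 stood at 0.99, Hormad1 at 0.94, Syce2 at 0.81, Syce3 at 0.80, Sycp1 at 0.76, Hormad2 at 0.69 and Tex12 at 0.57. Syce1 and Trip13 had the smallest ratios, 0.30 and 0.20. At least 2-fold higher was 1 of the 10 genes, against 2.92% of 13515 genes tested, and none was as much lower, against 7.06%. The median ratio was 0.78 for the 10 genes and -0.03 for all genes. Leaving out gated cells in somatic or unnamed clusters, which was chosen with the data in view, put 8 of the 10 past 2-fold and took Sycp3 to 2.03. The share of all genes past 2-fold is not given for that setting, so the 8 have no background beside them.

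The 7-day culture was set against 14 dpp in the same way. All 10 ratios were above 0, led by Sycp3 at 0.82, Hormad1 at 0.81 and Hormad2 at 0.70. Sycp1 stood at 0.58, Sycp2 at 0.48 and Syce3 at 0.21. For Syce2 (0.12), Syce1 (0.09), Tex12 (0.09) and Trip13 (0.05) the ratios were small, and the interval of Trip13, -0.03 to 0.13, covers 0. None of the 10 genes passed 2-fold in either direction, against 2.72% of 14183 genes tested that were higher and 7.19% that were lower. The median was 0.35 for the 10 genes and 0.02 for all genes.

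Beside these ratios stand the different stage mixtures. Early prophase-like cells were 28.4% against 14.0% of gated cells in the earlier pair and 41.4% against 31.9% in the later pair. All 8 genes of the Sertoli list had UMIs in the gated cells of each library, and summed to 2340 CPM at 9 dpp, 1001 in the 2-day culture, 3276 at 14 dpp and 1237 in the 7-day culture. The stromal and myoid list, with all 7 genes above 0, summed to 126, 278, 119.4 and 102 CPM in that order, and was thus highest in the 2-day culture. The 2 erythroid genes summed to 13.1, 82.6, 189 and 0.176 CPM, with Hbb-bs at 0 in the 7-day culture. The part of these markers in the ratios was not tested. The same stage weights in both libraries were set on the spermatogonia-like and early prophase-like cells, and in the later pair also the pachytene-like cells. Somatic and unnamed clusters were thus left out too. With this setting the ratio of Sycp3 went from 1.40 to 0.84 in the earlier pair and from 0.82 to 0.40 in the later. Leaving out those clusters without weights gave 2.03 and 0.97. In the earlier pair Syce1 went below 0 with these weights, to -0.05, and the other 9 genes stayed above 0. In the later pair 5 of the 10 went below 0: Tex12 (-0.32), Syce1 (-0.20), Syce2 (-0.18), Syce3 (-0.06) and Trip13 (-0.02).

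Within early prophase-like cells, the 10 genes had mixed ratios in the 2-day culture against 9 dpp. Sycp3 (0.78), Syce3 (0.67), Syce2 (0.55), Sycp1 (0.41) and Sycp2 (0.33) were higher in the culture. Tex12 (-0.01), Hormad1 (-0.06), Hormad2 (-0.04) and Trip13 (-0.14) had intervals that cover 0, and Syce1 was lower, at -0.37. No gene of the 10 passed 2-fold in this class, against 1.22% of all genes tested that were higher and 2.64% that were lower. The classes were not made of the same cells: cluster 8 supplied 615 of the 802 cells of the culture, and cluster 3 supplied 272 of the 382 cells at 9 dpp.

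Within early prophase-like cells of the later pair, Sycp3 (0.41), Hormad1 (0.39), Sycp1 (0.24) and Hormad2 (0.18) were higher in the 7-day culture than at 14 dpp. Tex12 (-0.43), Syce2 (-0.29), Syce1 (-0.28), Syce3 (-0.08) and Sycp2 (-0.06) were lower, and the interval of Trip13 (-0.15) covers 0. In this pair too the class was made of different clusters: cluster 5 held 401 and cluster 13 held 310 of the 1066 cells in the culture, against 336 and 131 of 1354 at 14 dpp, and clusters 3 and 9 held 194 and 125 against 542 and 342. Syce1, Syce2 and Tex12 were higher in clusters 3 and 9 than in cluster 13 in both libraries. Again none passed 2-fold, against 3.15% of genes higher and 4.31% lower. The median over the 10 genes was 0.16 in the earlier and -0.07 in the later pair, beside -0.08 and -0.01 for all genes. Erythroid markers moved with these cells at 14 dpp: the haemoglobin genes Hba-a1 and Hbb-bs summed to 262 CPM there and to 16.9 at 9 dpp, 13.2 in the 2-day culture and 0.135 in the 7-day culture, in which Hbb-bs was at 0. The Sertoli list summed in these cells to 210 CPM at 9 dpp, 161 in the 2-day culture, 358 at 14 dpp and 52.5 in the 7-day culture, with all 8 genes above 0 except Amh in the 2-day culture. The stromal and myoid list ran the other way in both pairs, with 64.5, 109.8, 30.7 and 43.5 CPM in that order. The part of these marker differences in the ratios was not tested.

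Single clusters with at least 30 cells in both libraries were then compared. In cluster 3, Sycp3 measured 1818 CPM at 9 dpp, 2607 in the 2-day culture, 1838 at 14 dpp and 1613 in the 7-day culture. The log2 ratio was 0.52 (interval 0.39 to 0.65) in the earlier pair and -0.19 (interval -0.26 to -0.11) in the later pair. In cluster 9, Sycp3 measured 5056, 6916, 4316 and 5033 CPM in the same order, with ratios of 0.45 and 0.22. So Sycp3 was higher in the 2-day culture than at 9 dpp at both steps, and the later pair changed sign between them. The 2-day culture had only 47 of its 2825 gated cells in cluster 3 and 44 in cluster 9. Cluster 8, with 615 of them, had 16 cells at 9 dpp and could not be compared. The Sertoli list, in the same order of libraries, summed to 199, 104, 169 and 64.3 CPM in cluster 3 and to 257, 68.6, 233 and 43.5 CPM in cluster 9, and its part was not tested.

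Further along, only the later pair had enough cells. Sycp3 was at 6660 CPM in the 7-day culture and 4723 at 14 dpp in cluster 5, a ratio of 0.50. It was at 5718 and 6005 CPM in cluster 13, a ratio of -0.07, and at 3081 and 2384 CPM in the pachytene-like cluster 16, a ratio of 0.37. The Sertoli list was lower in the culture in all 3 clusters, with 58.0 against 561 CPM in cluster 5, 45.2 against 572 in cluster 13 and 76.6 against 181 in cluster 16, and its part in these ratios was not tested. In cluster 11, with markers of undifferentiated spermatogonia, the Sycp3 ratio was 1.25 in the earlier pair, from 204 CPM at 9 dpp to 484 in the 2-day culture, and 0.60 in the later pair, from 211 to 320 CPM. Over the 7 clusters with values in the later pair, Sycp3 was thus higher in culture in 5 and lower in 2, with the interval of 1 of the 5, cluster 6 (0.12), covering 0.

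The other genes had ratios on both sides of 0 at matched cluster. Syce2 was higher in the 2-day culture than at 9 dpp in cluster 3 (0.58) and cluster 9 (0.33), and in the 7-day culture than at 14 dpp in the same clusters (0.18 and 0.24). It was lower in the 7-day culture in cluster 5 (-0.15), cluster 13 (-0.15) and cluster 16 (-0.29). Tex12 in the 7-day culture was lower in cluster 3 (-0.36) and cluster 5 (-0.38) and level in cluster 13 (0.01). Hormad1 in the 7-day culture was lower in cluster 3 (-0.35) and higher in cluster 5 (0.49). In the pachytene-like cells of the later pair, Hormad2 had a ratio of 0.76 (interval 0.47 to 1.04), from 73.0 CPM at 14 dpp to 123 in the culture, and Syce1 a ratio of -0.45. No gene passed 2-fold in those cells, where 2.08% of all genes tested were higher and 3.33% lower.

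**Figure D4:**
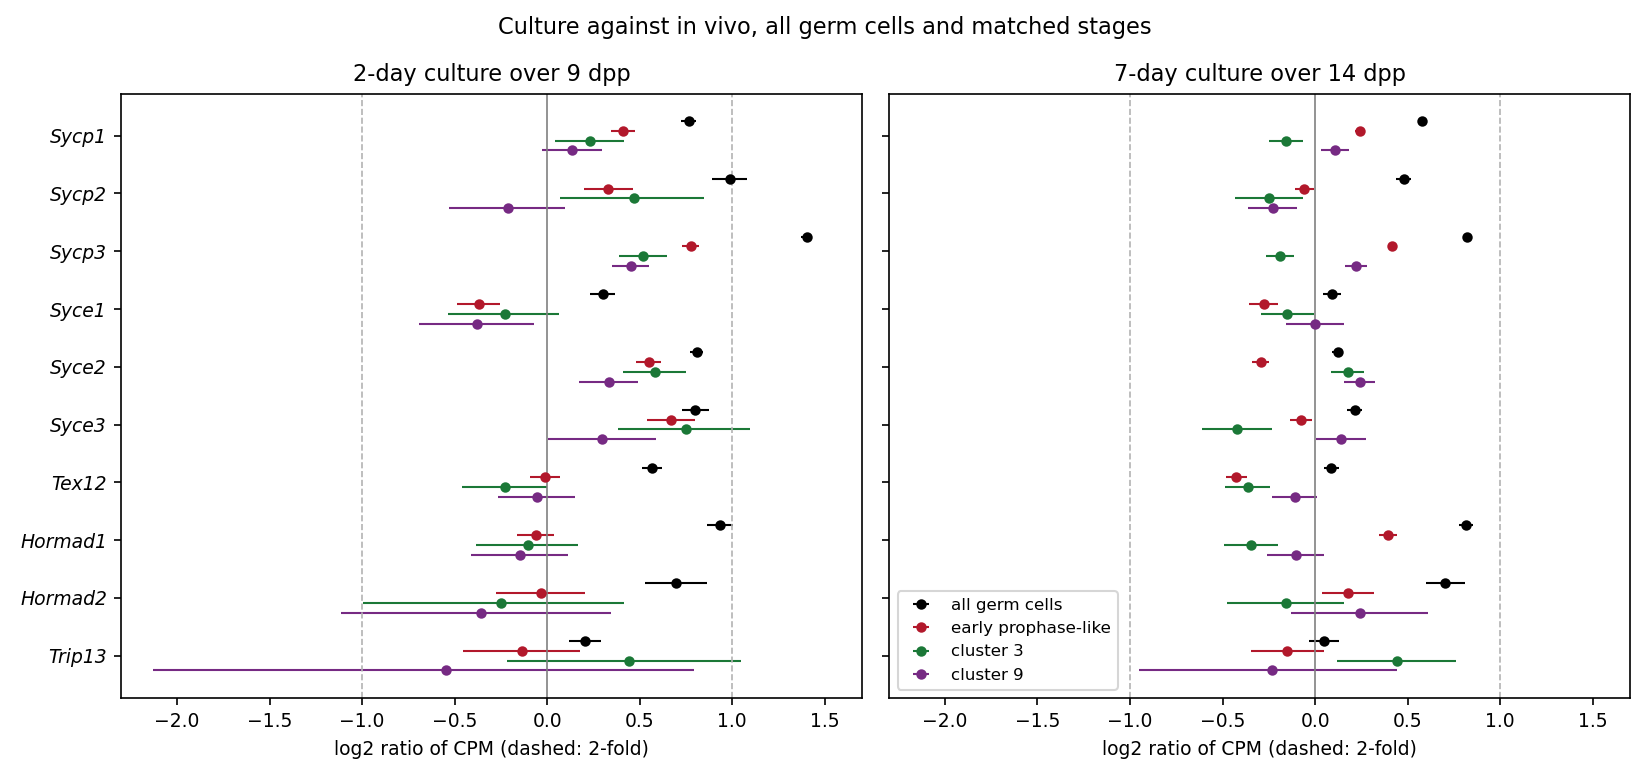
Log2 ratio of CPM of culture over in vivo for each gene, in all gated germ cells (black), early prophase-like cells (red) and clusters 3 (green) and 9 (purple), for the 2-day culture over 9 dpp and the 7-day culture over 14 dpp; lines are 95% counting intervals and dashed lines mark 2-fold. All 20 ratios over all germ cells lie above 0, and those at matched stage lie on both sides of it in both pairs.

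Spermatogonia-like cells of the 2-day culture also differed from those at 9 dpp. Hormad1 was at 161 and 67.3 CPM (log2 ratio 1.26), Sycp2 at 88.6 and 38.0 CPM (1.22) and Sycp3 at 752 and 363 CPM (1.05). These 3 of the 10 genes passed 2-fold, against 4.13% of all genes tested, and none was as much lower, against 13.2%. Sycp1 followed at 0.89, and the other 6 lay between 0.29 and 0.57. Clusters 0 and 10 held most of this class in the cultures and clusters 2, 4, 6 and 7 in vivo. Cells of clusters 0 and 10 had a median of 5096 and 3296 UMIs, against 8119 to 15950 in the other 4. Gm42418 and Gm26917, transcripts known to collect reads of ribosomal RNA, were among the 10 leading genes of cluster 10, which held 216 cells of the 2-day and 331 of the 7-day culture and 12 cells at 9 and 25 at 14 dpp. The part of depth and of these transcripts in the ratios was not tested. In the later pair the ratios lay between -0.04 and 0.66, with Sycp2 highest, and none passed 2-fold (1.65% of genes higher, 5.04% lower). Markers of other cell types differed within this class too. The Sertoli list summed to 149 CPM at 9 dpp, 121 in the 2-day culture, 137 at 14 dpp and 49.98 in the 7-day culture, and the 2 erythroid genes to 13.7, 2.50, 130 and 0.107 CPM in that order. The stromal and myoid list was higher in the 2-day culture, with 52.6, 93.0, 37.2 and 29.9 CPM. Their part in the ratios was not tested.

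The change with age in vivo and with time in culture used the same 4 libraries, so these ratios are not independent of those above. From 9 to 14 dpp, Sycp2 had a log2 ratio of 2.11, Sycp1 1.44, Syce3 1.35, Sycp3 1.31 and Hormad1 1.30 over all gated cells. These 5 genes passed 2-fold, against 7.78% of genes tested. Hormad2 stood at 0.71, Syce1 at 0.40, Tex12 at 0.34 and Syce2 at 0.16, while Trip13 was lower, at -0.30. None was at least 2-fold lower, against 4.52% of genes. The same stage weights in both libraries here covered spermatogonia-like and early prophase-like cells only. Pachytene-like cells, absent at 9 dpp, were left out with the somatic and unnamed clusters. The share of all genes past 2-fold is not given for this setting. In this setting 1 gene stayed past 2-fold, Sycp2 at 1.07, and Hormad1 went to 0.17. It also had 4 genes go below 0: Tex12 (-0.38), Syce1 (-0.29), Hormad2 (-0.18) and Syce2 (-0.07).

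From the 2-day to the 7-day culture, Sycp2 (1.61), Sycp1 (1.26) and Hormad1 (1.18) passed 2-fold, against 7.05% of genes tested. Syce3 (0.76), Sycp3 (0.73), Hormad2 (0.72) and Syce1 (0.19) were higher by less. Syce2 (-0.52), Trip13 (-0.45) and Tex12 (-0.13) were lower, and none was at least 2-fold lower, against 4.47% of genes. No gene stayed past 2-fold with the same stage weights, which gave Sycp2 0.67, Sycp1 0.56 and Hormad1 0.43, or with somatic and unnamed clusters left out, which gave 0.89, 0.69 and 0.63. Syce1 went below 0 in both cases (-0.39 and -0.21), and Hormad2 was at -0.04 and 0.19. The weights again covered spermatogonia-like and early prophase-like cells only. The share of all genes past 2-fold is not given with these weights or with those clusters left out. Within early prophase-like cells, 1 gene of the 10 passed 2-fold in each direction of time: Sycp2 was higher at 14 than at 9 dpp (1.18, against 7.66% of genes higher and 5.14% lower), and Syce2 was lower in the 7-day than in the 2-day culture (-1.01, against 8.71% of genes lower and 13.9% higher). Both calls were lost under other settings. Sycp2 was at 0.93 at resolution 0.5. Syce2 was at -0.98 at resolution 0.5, at -0.93 with each library clustered on its own, at -0.81 with each cell weighted equally and at -0.13 with the stage of each cell taken from its highest list.

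With age in vivo, Sycp1, Sycp2, Sycp3 and Syce3 had smaller ratios in clusters 3 and 9 than over all gated cells. In cluster 3, Sycp1 had 0.22, Sycp2 0.54, Sycp3 0.02 and Syce3 0.64 from 9 to 14 dpp. In cluster 9 the same genes had 0.26, 0.52, -0.23 and 0.36. Syce3 was higher at 14 dpp in all 7 clusters compared, from 0.36 in cluster 9 to 0.69 in cluster 2, and Tex12 was lower in all 7, from -0.13 in cluster 2 to -0.53 in cluster 7, with an interval covering 0 in cluster 2.

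Other genes of the meiotic chromosome were counted on lists by role, over all gated cells. In the 2-day culture against 9 dpp, where 2.92% of all genes tested were at least 2-fold higher and 7.06% lower, 1 of 7 cohesin genes passed 2-fold (Rad21l, a meiotic kleisin, 1.42), with a median of 0.38 and Smc1a, a cohesin subunit of all cells, lowest at -0.21. Of the genes of double-strand break formation 2 of 7 did, with a median of 0.46, led by Spo11 (1.42), whose product makes the breaks, and with Rec114 lowest at 0.17. Of the strand exchange genes 3 of 8 did, with a median of 0.80, from Mnd1 (0.14) to Meiob (2.12), which encodes a single-strand DNA-binding protein of meiosis. Of the crossover genes 2 of 10 did, with a median of 0.45, led by the helicase gene Hfm1 (1.64). Of the telomere attachment genes 3 of 5 did, with a median of 1.01, from Majin (0.09) to Terb1 (1.78). 4930447C04Rik, also called Six6os1, encodes a further central element protein and had 0.78, and no gene of the 6 lists was at least 2-fold lower.

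In the 7-day culture against 14 dpp the list medians were 0.06 for cohesins, 0.14 for break formation, 0.23 for strand exchange, 0.22 for crossover and 0.05 for telomere attachment. Six6os1 had 0.54. Mnd1, a partner of the strand exchange proteins (1.03), and Cntd1, a gene of late crossover intermediates (1.35), were the 2 of 39 list genes past 2-fold, against 2.72% of all genes tested that were higher and 7.19% that were lower. Within early prophase-like cells of that pair the medians of the same 5 lists were -0.46, -0.38, -0.21, -0.40 and -0.70, all below 0. Rad21l was at least 2-fold lower (-1.05) and Cntd1 as much higher (1.18), against 4.31% of all genes tested that were lower and 3.15% that were higher. The telomere attachment gene Majin (-0.97), the break formation gene Mei1 (-0.96) and Mnd1 (0.96) came near 2-fold. In the earlier pair they were -0.32, 0.01, 0.37, -0.10 and 0.02, and 3 list genes passed 2-fold: Spo11 was higher (1.62), and the meiotic cohesin gene Rec8 (-1.26) and Majin (-1.08) were lower, against 1.22% of all genes tested that were higher and 2.64% that were lower.

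**Figure D5:**
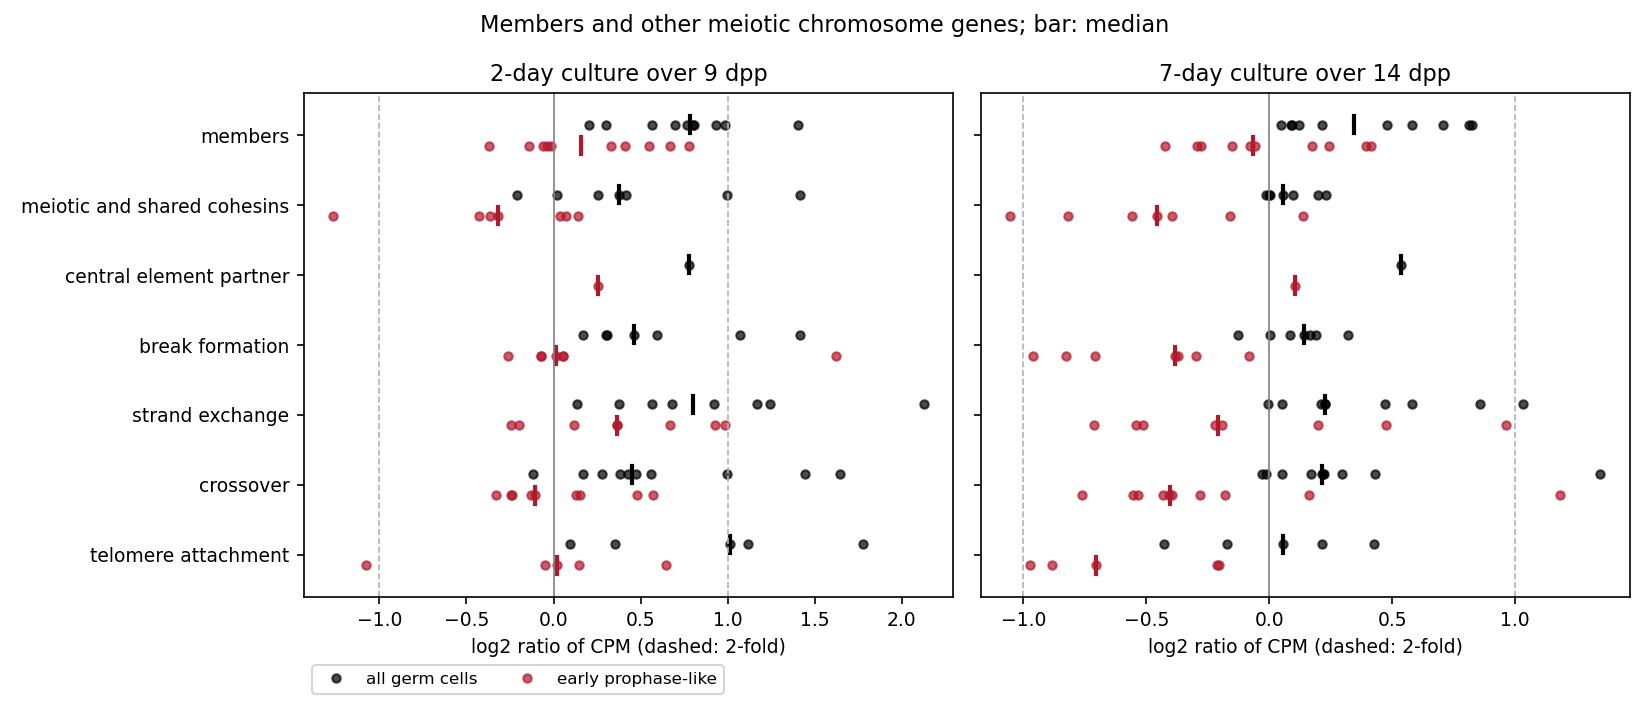
Log2 ratio of CPM of culture over in vivo for the 10 genes and for each gene of 6 other lists of meiotic chromosome genes, in all gated germ cells (black) and in early prophase-like cells (red); vertical bars are list medians and dashed lines mark 2-fold. Medians over all gated cells lie above 0 in both panels and those of early prophase-like cells lie lower in every list.

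Over the 10 pools of a stage class and a library with at least 30 cells, the summed level of the 10 genes followed Sycp3 (Pearson r = 0.997 on log2(CPM + 1)), which makes up much of the sum. The r of the other members was 0.984 for Hormad1, 0.983 for Hormad2, 0.979 for Sycp1, 0.969 for Sycp2, 0.968 for Syce3, 0.944 for Tex12 and 0.918 for Syce1. It was 0.391 for Syce2 and -0.759 for Trip13. The 5 genes outside the list with the highest r were Zhx1 (0.993), Hfm1 (0.993), Iqcb1 (0.992), Lyrm1 (0.990) and Zfp654 (0.988). Iqcb1 ran from 69.4 to 761 CPM over the pools and the other 4 stayed under 116 CPM. The pools share libraries and depth, so these values describe likeness over 10 points.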

How the data were processed

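The authors deposited raw counts of UMIs for every gene in every barcode. The submitters' processing notes name Cell Ranger 3.0.2 and mm10, while annotation and strand handling are not given in the sources used here. From these counts, cells needed at least 500 genes and no more than 20% mitochondrial UMIs, and Scrublet calls (expected rate 6%, scanpy 1.11.5) were removed, which left 4817 to 6879 per library. Gated cells of all libraries were clustered with Leiden (leidenalg 0.10.2, resolution 1, 2000 variable genes, 30 components, 20 neighbours), without the 10 genes, the other meiotic lists and mitochondrial genes. A cluster took the class with the highest mean marker level among those with at least 3 detected markers, unless its 10 leading genes held more listed markers of another class than of its own. Cluster 15 met this rule for Sertoli cells and is left without a name in the text for its unlisted macrophage genes. UMIs were summed per library and class into CPM with exact Poisson intervals. Log2 ratios have exact intervals from the split of UMIs between the 2 libraries, with no constant added, and a library at 0 would be set to 3 UMIs. Genes with at least 50 UMIs in the 2 sums were tested against a 2-fold rule. Shares have Clopper-Pearson intervals. Thinning drew UMIs without replacement. The ratio step was tested on simulated counts.

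Named genes were the 10 genes, the highest and lowest gene of each list in a comparison (1 of them is not reported here), and the 5 genes most alike. The members and lists were chosen with earlier results of these data known. Alternatives covered the gate, cell filters, doublets, TMM (edgeR 4.0.16) and DESeq2 1.42.0 size factors, cell weights, added constants, somatic background, stage weights, clustering and thinning.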

Additional observations from a re-analysis of the deposited data

Results flagged for a closer look

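Syce2 and Tex12 went in opposite directions with age in vivo and with time in culture, over all gated germ cells. Syce2 had a log2 ratio of 0.16 from 9 to 14 dpp (499 to 558 CPM) and of -0.52 from the 2-day to the 7-day culture (872 to 608 CPM). Tex12 had 0.34 in vivo (238 to 302 CPM) and -0.13 in culture (352 to 321 CPM). The 4 intervals lie off 0, but they cover counting error only, and the difference between the 2 time courses was not tested. The same stage weights in both libraries, set on spermatogonia-like and early prophase-like cells only, gave ratios below 0 for both genes in both courses. Syce2 was at -0.07 in vivo and -0.79 in culture, and Tex12 at -0.38 and -0.82. Within early prophase-like cells both genes were lower at the later time in both courses: Syce2 by -0.17 in vivo and -1.01 in culture, and Tex12 by -0.43 and -0.84. With the stage of each cell taken from its highest list, both were higher at 14 than at 9 dpp in these cells (Syce2 by 0.28 and Tex12 by 0.06) and lower in the 7-day culture (-0.13 and -0.19). Those cells were not of the same clusters: cluster 8 held 615 of 802 in the 2-day culture, clusters 5 and 13 held 401 and 310 of 1066 in the 7-day culture, and cluster 3 held 272 of 382 at 9 dpp and 542 of 1354 at 14 dpp.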

How the results depend on the processing

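No gene past 2-fold changed direction under any alternative. No paired analysis was possible because each group has 1 library. Shares of all genes past 2-fold are given above for the settings of the main comparisons only. Counts of genes past 2-fold under the alternatives below thus have no background beside them. The number of genes at least 2-fold higher moved by more than 1.5 times in several cases. For the 2-day culture over 9 dpp (1 gene), it was 2 with TMM factors, 2 with DESeq2 size factors, 0 with the same stage weights and 8 with somatic and unnamed clusters left out, a choice added after the data were seen. For the 7-day culture over 14 dpp (0), it was 1 without gated cells with somatic markers. For 14 over 9 dpp (5), it was 1 with the same stage weights. For the 7-day over the 2-day culture (3), it was 1 with each cell weighted equally, 0 with the same stage weights and 0 with those clusters left out. In early prophase-like cells from 9 to 14 dpp (1 higher), it was 0 at resolution 0.5 and 3 with the stage of each cell taken from its highest list. In those cells from the 2-day to the 7-day culture (0 higher, 1 lower), the highest list gave 1 higher and 0 lower, and 0 lower came also from resolution 0.5, from clustering each library on its own and from equal cell weights. The number of genes highest in early prophase-like cells of the 7-day culture went from 6 to 1 with the highest list, where 720 of 2494 cells lay near the boundary of 2 stages. The share of gated cells with at least 5 of the genes was 88.9%, 71.7%, 89.9% and 87.3% without thinning and 8.16%, 20.5%, 24.0% and 28.9% after thinning to 1000 UMIs, in the order 9 dpp, 2-day culture, 14 dpp, 7-day culture.

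Same stage weights put 38 of 40 member ratios outside their intervals, with 12 changes of sign and a largest move of 1.13. That setting also left out somatic and unnamed clusters and classes not shared by both libraries, so the moves are not those of weights alone. Adding 1 to the CPM kept all 40 inside. Resolution 2 was run on 40 ratios within early prophase-like cells and kept all of them inside, with 2 changes of sign. The causes were not tested. The 1 library per group, the low depth of the 2-day culture and clusters split by library limit these comparisons, and Hormad2 had the fewest UMIs of the 10 genes over all gated cells of each library.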
